A study of Homo sapiens with 4 samples.

Results

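The wide peaks of the SMD2 peak list were the 469 of 9401 positions whose end lay 50 nt or more beyond their start (4.99%, Wilson 95% interval 4.57 to 5.45%). They were chosen by width alone, whatever their gene type or annotation, and were set beside the 8932 narrower peaks. Width is therefore a description here and not a finding. The study mapped RNA contacts of SMD2, the product of SNRPD2, in HEK293T cells, an established line of human embryonic kidney origin. In PAR-CLIP, RNA labelled with 4-thiouridine is tied by long-wave ultraviolet light to the protein it touches, and the RNA that stays on the immunoprecipitated protein is trimmed by nuclease and sequenced. There were 3 libraries from SMD2 immunoprecipitation (anti-FLAG, after 200 uM 4-thiouridine for 14 h, light of 365 nm and RNase T1 digestion for 8 min) and 1 input library. All 4 came from the same cell line and the same labelling, and the deposited list gives 1 set of positions with no value for any library and none for the input.

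SMD2 is one of the Sm proteins, which close into a ring on the U1, U2, U4 and U5 small nuclear RNAs (snRNAs) of the spliceosome. U6 snRNA carries a related ring of LSm proteins in its place. Transfer RNAs, 7SL, 7SK, Y RNA, RNase P RNA and U6 are made by RNA polymerase III, and these RNAs, like ribosomal RNA and U3 snoRNA, are abundant, folded and short or cut from long precursors. The list holds no expression value, so RNA abundance and contact with SMD2 cannot be told apart in any count below. Peaks of a single list are not replicates, so shares are given with intervals for counting error only and no difference was tested.

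For 3 of the wide peaks on such RNAs the RefSeq promoter window of a neighbouring gene held 30 nt or more of the peak, and these stretches are printed. They were picked because they place the peak edges on the RNA itself. The first is the whole 87-nt peak at chr16:3188095-3188181 (GRCh38, plus strand), on the proline tRNA gene TRP-TGG3-5 upstream of OR1F1. The second is 55 nt of the 73-nt peak at chr2:70248989-70249061 (minus strand), on the glycine tRNA gene TRG-CCC2-1 upstream of TIA1. The third is 32 nt of the 176-nt peak at chr14:34556215-34556390 (minus strand), on the U1 copy RNU1-28P. Capitals mark the bases inside the RefSeq gene and lower case the bases of the peak beyond it, all from RefSeq and written 5′ to 3′.
TRP-TGG3-5: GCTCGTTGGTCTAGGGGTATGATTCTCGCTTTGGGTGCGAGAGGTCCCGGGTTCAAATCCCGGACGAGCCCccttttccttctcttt
TRG-CCC2-1: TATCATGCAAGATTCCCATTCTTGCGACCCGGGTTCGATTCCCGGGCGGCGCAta
RNU1-28P: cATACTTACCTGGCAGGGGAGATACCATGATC

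The proline peak began 1 nt inside the tRNA gene and ran 16 nt past its 3′ end. That stretch holds a run of T of the kind at which RNA polymerase III stops. The glycine peak ended 2 nt past the 3′ end of its gene. Both tRNA sequences hold the internal B box of RNA polymerase III genes, searched by its first 7 letters as GGTTCNA on both strands and found on the printed strand, at base 50 of the first and base 32 of the second. The letters of this search occur on either strand in 8.23% of the 35116 RefSeq promoter windows of 300 nt. The U1 copy shows the 5′ end of the RNA, whose first bases pair with 5′ splice sites. Its peak started 1 nt before that end and ran on 11 nt past the other end of the 164-nt gene.

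Wide peaks had a median width of 64 nt (interquartile range 54 to 85 nt), against 23 nt (19 to 29 nt) in narrower peaks. Most of them were only just wide: 302 (64.4%) measured 50 to 74 nt, 167 measured 75 nt or more, 78 measured 100 nt or more and 18 measured 200 nt or more. At the threshold itself, 33 peaks measured exactly 50 nt and 20 exactly 49 nt. Among the first by symbol, ACTG1, AZI2 and BABAM1 stood just inside and BOLA2-SMG1P6, COPZ1 and CRHR2 just outside. The wide peaks held 44932 of the 264537 bases of the list (17.0%), and the 9 peaks of 300 nt or more held 21.3% of those 44932 bases. They were assigned to 451 gene identifiers, of which 439 had 1 wide peak.

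Wide peaks lay on genes of structural RNA far more often than narrower peaks did. By overlap of at least 1 base with RefSeq genes, 135 of 469 (28.8%, 24.9 to 33.0%) lay on 1 of 6 classes, namely the mitochondrial genome, ribosomal RNA, tRNA, snRNA, the group of 7SL, 7SK, Y RNA and RNase P RNA, and snoRNA with scaRNA, copies included. Of narrower peaks 167 of 8932 did (1.87%, 1.61 to 2.17%). A wide peak meets a gene more easily, and with 50% or more of the peak required on the gene the shares were 27.9% and 1.80%. The mitochondrial class includes protein-coding genes. Under the 50% rule, applied to each gene singly, it kept 2 of its 6 wide peaks, those on the protein-coding genes ND2 and ND4. At 1 base of overlap, the share on the 6 classes rose with width. It was 1.71% of 8386 peaks under 40 nt and 4.40% of 546 peaks of 40 to 49 nt. It then reached 11.6% at 50 to 74 nt and 59.9% at 75 nt or more. These classes made up 50.6% of all bases in wide peaks. Median width was 87 nt on them and 57 nt in the other 334 wide peaks. Reads of near-identical copies of tRNA, U1 and other snRNA, 7SL, ribosomal RNA and mitochondrial genes cannot be assigned to 1 copy. Counts below are therefore of loci and not of separate RNAs, and a peak on a pseudogene may hold reads of another copy.

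**Figure D1:**
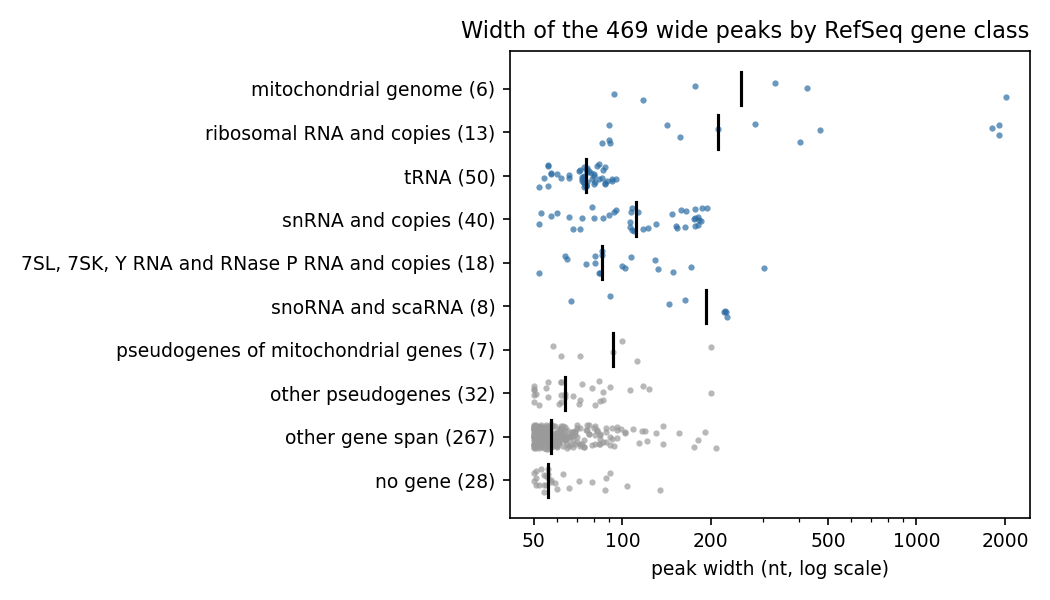
Each point is 1 of the 469 wide peaks, placed by its width in nt (log scale) and by the RefSeq gene class it overlapped, with the number of peaks in brackets, the median as a black bar, and structural RNA in blue. Peaks on tRNA genes crowd around 75 nt, while the 4 peaks over 1000 nt lie on ribosomal RNA and the mitochondrial genome.

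**Figure D2:**
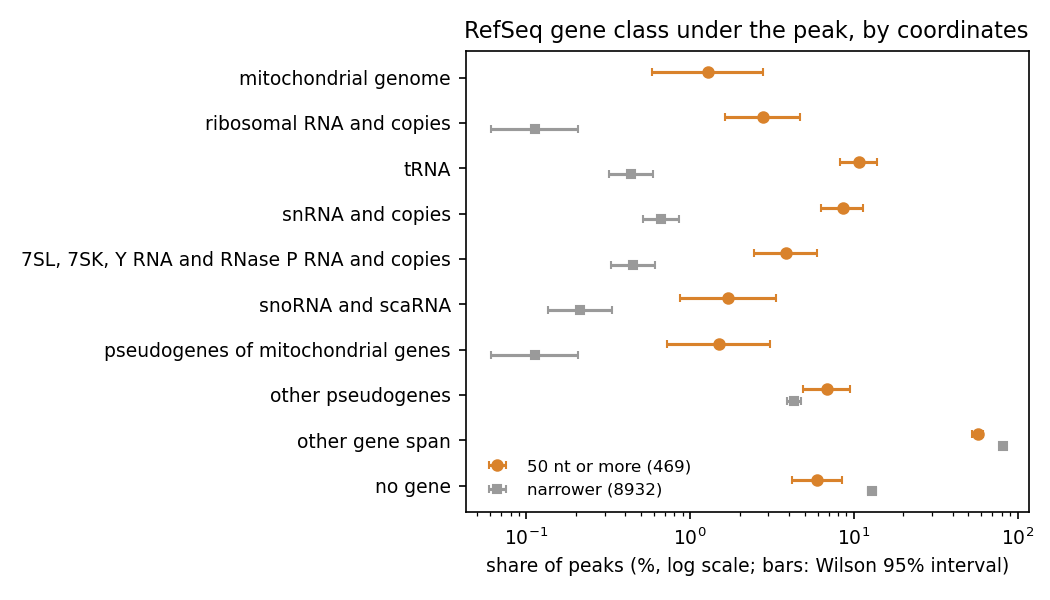
Share of wide (orange) and narrower (grey) peaks on each RefSeq gene class, in percent on a log scale with Wilson 95% intervals; no narrower peak lay on the mitochondrial genome. Every structural RNA class has a higher share among wide peaks, and the spans of other genes and sequence without a gene have a lower one.

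Transfer RNA genes were the largest of these classes, with 50 wide peaks (10.7%, 8.18 to 13.8%) against 39 narrower ones (0.437%). Each wide peak lay on a different nuclear tRNA gene, so 50 of the 443 nuclear tRNA genes in RefSeq had one. A narrower peak cannot cover a gene of 71 to 84 nt, so coverage follows in part from the rule. Within that limit, most of the wide peaks traced the tRNA closely, and 39 covered 90% or more of it. Their widths ran from 52 to 95 nt with a median of 75 nt, and 34 covered the whole gene. The median wide peak reached 1 nt beyond each end of its gene, and no overhang exceeded 18 nt. Narrower peaks on tRNA genes had a median of 36 nt and covered a median of 45.8% of the gene.

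Valine tRNA genes stood out by number. Of 30 valine genes 22 had a wide peak: 8 of 10 with anticodon AAC, 11 of 15 with CAC and 3 of 5 with TAC. TRV-AAC1-1 on chromosome 3 had a peak of 89 nt, and TRV-TAC1-1 on chromosome 11 one of 92 nt. In TRV-AAC1-2 and TRV-AAC1-3, both on chromosome 5, the peak was 56 nt wide and left out 16 nt at the upper-coordinate end of the gene. These 4 valine genes and the tRNA genes named in the next paragraph were chosen after their values were seen.

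Glycine genes followed with 8 of 33, of which 6 had anticodon GCC, and each of these 6 peaks covered its whole gene (72 to 87 nt). Glutamate genes had 4 of 15, with peaks of 74 to 80 nt that again covered the whole gene. Proline genes differed in the kind of peak: 16 of 20 had a peak of any width but 5 had a wide one. All 9 proline genes with anticodon AGG had a peak, yet only TRP-AGG2-7 had a wide one (78 nt). The 13 narrower peaks on the AGG genes had a median of 35 nt and covered a median of 45.8% of the gene. Alanine genes were alike in this, with 9 of 38 carrying any peak and 2 a wide one. Threonine and elongator methionine genes had 2 wide peaks each, and initiator methionine, isoleucine, leucine, phenylalanine and selenocysteine genes 1 each. Serine and cysteine genes had narrower peaks only. No peak lay on a gene for the tRNAs of arginine, asparagine, aspartate, glutamine, histidine, lysine, tryptophan or tyrosine.

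**Figure D3:**
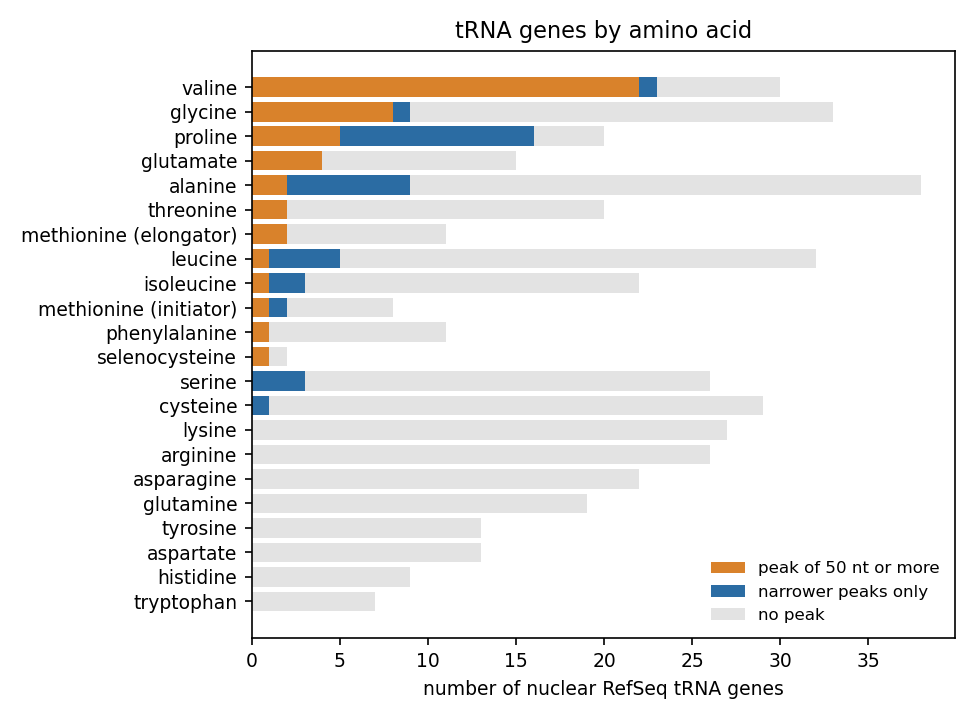
Nuclear RefSeq tRNA genes by amino acid (bar length, number of genes), split into those with a wide peak (orange), with narrower peaks only (blue) and with no peak (grey). Valine has 22 of 30 genes with a wide peak, proline mostly narrower peaks, and 8 amino acids have no peak.

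The authors' gene labels do not show this, since their list has a type for mitochondrial tRNA but none for nuclear tRNA. Among the 50 peaks, 25 were assigned to long noncoding RNAs, 15 to protein-coding genes and the others to pseudogenes or other small RNAs. Both or all wide peaks of several genes lay on tRNA genes: the 4 of LINC01962 (56, 75, 73 and 75 nt), and the 2 each of FOXO1B (57 and 57 nt), VAC14 (86 and 73 nt), ENSG00000273112 (87 and 80 nt) and ENSG00000262521 (78 and 74 nt). The 66-nt peak assigned to ZNF839, a zinc finger gene, lay on an isoleucine tRNA gene. Of 4 wide peaks assigned to Y_RNA, the one of 95 nt on chromosome 14 lay on a threonine tRNA gene.

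Small nuclear RNAs and their copies had 40 wide peaks (8.53%, 6.33 to 11.4%) and 59 narrower ones (0.661%). The U1 family, the Sm-class RNA that recognises 5′ splice sites, had 20 wide peaks among its 37. They measured 52 to 194 nt with a median of 170 nt, and 11 covered the whole gene. Some of the 20 lay on pseudogenes, namely RNU1-27P, RNU1-28P, RNU1-29P, RNU1-34P, RNU1-39P, RNU1-67P, RNU1-98P and RNU1-136P. RNVU1-7, a variant U1 gene, had the widest (194 nt), followed by RNU1-3 (187 nt), RNU1-4 (185 nt, in the authors' list assigned to ENSG00000282740), RNVU1-31 (182 nt), and RNVU1-28 and LOC124904613 (181 nt each). RNU1-4 and LOC124904613 were added to the named genes after their values were seen. In all 11 the peak passed 1 end of the gene by 0 to 2 nt. It passed the other end by 1 to 29 nt, with a median of 16 nt, and by 10 nt or more in 10 of 11. In RNU1-28P the printed sequence shows that the short overhang was at the 5′ end of the RNA. The strand of the other 10 was not used here.

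Other Sm-class families had fewer. The U5 family had 4 wide peaks among 7, of 53 to 122 nt. Those on RNU5A-8P, RNU5D-2P and RNU5E-4P lay on pseudogenes. The 118-nt peak on RNU5F-1 missed 1 nt of the gene and passed its other end by 1 nt. The U2 family had 2 among 3 (73 and 158 nt), both on pseudogenes. The U4 family had 1 among 13 (108 nt), over 21.6% of the pseudogene RNU4-7P. The U6 family, which carries the LSm ring, had 12 among 31. All 12 lay on pseudogenes, had a median of 92 nt, and covered between 55.7% and 100% of the gene. U4atac and U7 had narrower peaks only.

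**Figure D4:**
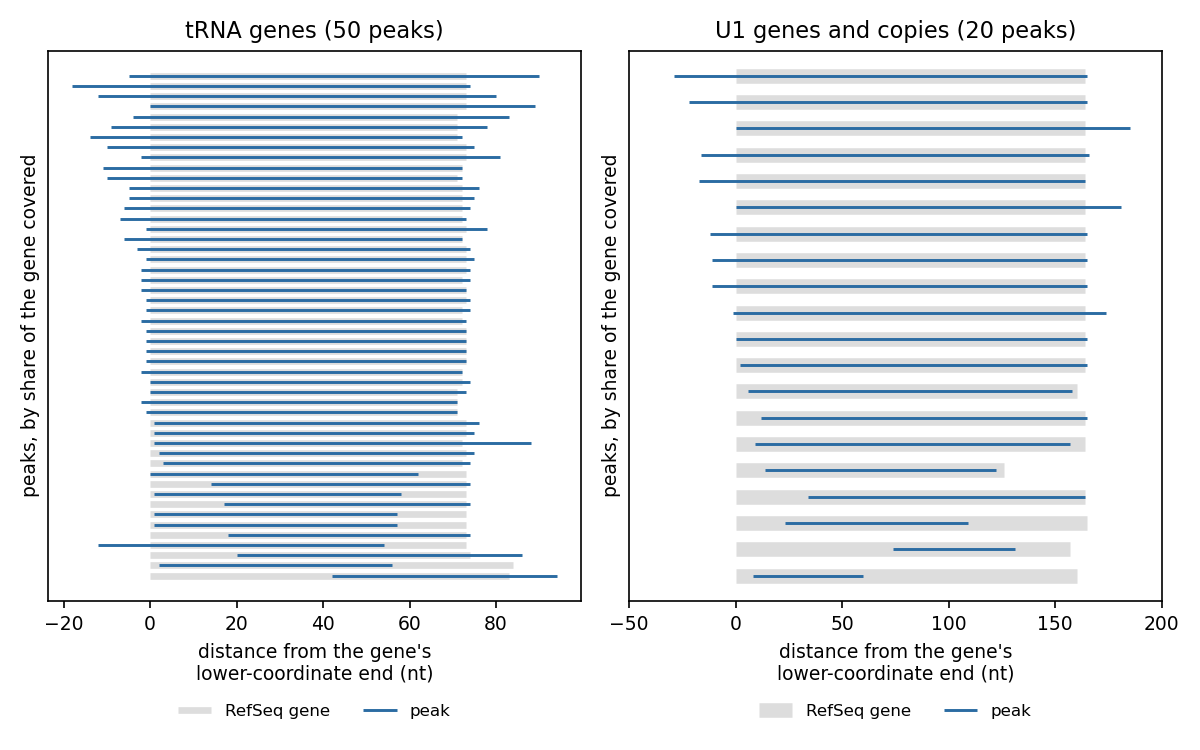
Extent of each wide peak (blue line) over its RefSeq gene (grey bar) for 50 tRNA genes and 20 U1 genes and copies, in nt from the lower-coordinate end of the gene, ordered by the share of the gene covered. Of the peaks on tRNA genes, 39 cover 90% or more of the gene and the others leave out more of 1 or both ends, and the whole-gene U1 peaks overhang mostly at 1 end.

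U3 snoRNA, which guides the first cuts of the ribosomal RNA precursor, had a wide peak on each of its 5 genes. SNORD3A had 227 nt, SNORD3B-1 225 nt, SNORD3C 223 nt and SNORD3B-2 221 nt, on genes of 217 nt, of which between 98.2% and 99.5% was covered. SNORD3D had a peak of 91 nt that covered 37.3%. The class of snoRNA and scaRNA genes had only 3 further wide peaks and 19 narrower ones. The snoRNA host list had 0 wide peaks among 11 (upper bound 25.9%, against 5.11% wide over all peaks outside the intergenic class), too few to be read as a difference.

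Of 7SL, the RNA of the signal recognition particle, 13 of 47 peaks were wide. RN7SL3 had a peak of 303 nt, which covered the whole 299-nt gene and 2 nt beyond each end. The other 12 lay on pseudogenes and covered 21.4% to 59.6% of them, among them RN7SL564P (149 nt) and RN7SL381P (132 nt). RPPH1, the RNA of RNase P, had a peak of 171 nt over 48.97% of the gene. The 7SK family, whose RNA holds back transcription elongation, had 3 wide peaks, of 52, 65 and 100 nt, all on pseudogenes.

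Ribosomal RNA gave 3 of the 4 widest peaks. They lay on the short arm of chromosome 21, on the 18S genes of the units RNA45SN3, RNA45SN2 and RNA45SN1. The peak of 1908 nt covered the whole 1869-nt 18S gene, passing its lower-coordinate end by 37 nt and its upper end by 2 nt. The peak of 1906 nt also covered the whole gene, with 24 and 13 nt beyond it. The peak of 1811 nt began 62 nt inside the gene and passed the upper end by 4 nt. The authors' list assigns these peaks to long noncoding RNAs ENSG00000280614, ENSG00000280800 and ENSG00000281181. A further gene label, ENSG00000280441, had 4 wide peaks in the same units. Those of 471, 157 and 403 nt lay before 18S, in the spacer that is cut away from the precursor. The one of 211 nt lay between 5.8S and 28S. No wide peak lay on the 28S gene of these units. Copies of 18S on chromosomes 22 and Y had peaks of 283 nt (ENSG00000288262) and 142 nt (ENSG00000225840), and the pseudogenes RNA5SP145 and RNA5SP149 of 5S RNA had 90 nt each. The peak assigned to 5_8S_rRNA on chromosome 14 measured 200 nt and lay on RefSeq pseudogenes.

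The 6 peaks of the mitochondrial genome were all wide. The widest peak of the list, 2017 nt and assigned to MT-RNR2, ran from position 578 to 2594. It covered the small ribosomal RNA and the valine tRNA in full, nearly all of the phenylalanine tRNA, and 59.3% of the large ribosomal RNA. The peak assigned to MT-TY (330 nt) covered the mitochondrial tRNAs of alanine, asparagine, cysteine and tyrosine. The peak assigned to MT-ATP6 (424 nt) covered ATP8 in full and 28.3% of ATP6, and the peak assigned to MT-TE (176 nt) covered the glutamate tRNA. Those of MT-ND2 and MT-ND4 measured 118 and 94 nt. A nuclear copy of mitochondrial sequence on chromosome 1, ENSG00000230021, had wide peaks of 58, 112, 93 and 200 nt.

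Outside the structural RNA classes 334 wide peaks and 8765 narrower ones remained. The split rests on RefSeq genes and is not complete. By the authors' gene types, misc_RNA (the type of Y_RNA) still had 5 of these wide and 63 of these narrower peaks. The snRNA type had 2 and 38, and the snoRNA type 2 and 15. Pseudogenes of mitochondrial genes, also outside the classes, had 7 and 10. The share assigned to protein-coding genes was close in both, 74.9% (69.9 to 79.2%) and 78.4% (77.6 to 79.3%), and so was the share of long noncoding RNAs, 12.9% and 13.2%. Where in the gene they lay was not alike. Introns held 22.5% of these wide peaks (18.3 to 27.2%) and 54.4% of the narrower ones (53.3 to 55.4%) in the authors' annotation. Promoter labels made up 22.8% against 9.21%, exons 18.3% against 9.65%, 3′ UTRs 16.2% against 11.5%, and transcription termination sites 12.3% against 3.32%; none of these intervals overlapped. The higher 3′ UTR share was seen at 50 to 74 nt (17.98% of 267 peaks) but not at 75 nt or more (8.96% of 67 peaks), against 11.5% of narrower peaks. No interval was computed for these shares by width, so 8.96% is not read as lower than 11.5%. The intron share fell with width, from 55.0% of 8243 peaks under 40 nt and 45.02% of 522 peaks of 40 to 49 nt to 26.2% of 267 peaks of 50 to 74 nt and 7.46% of 67 peaks of 75 nt or more. Over all peaks, structural RNA included, introns held 18.1% of wide and 53.6% of narrower peaks, and promoter labels 36.0% and 10.4%. Of the 169 wide peaks labelled promoter, 93 lay on structural RNA genes, 40 of them on snRNA genes and copies and 19 on tRNA genes. For all 19 the label refers to another gene, as for TIA1, since the authors' list has no type for nuclear tRNA.

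**Figure D5:**
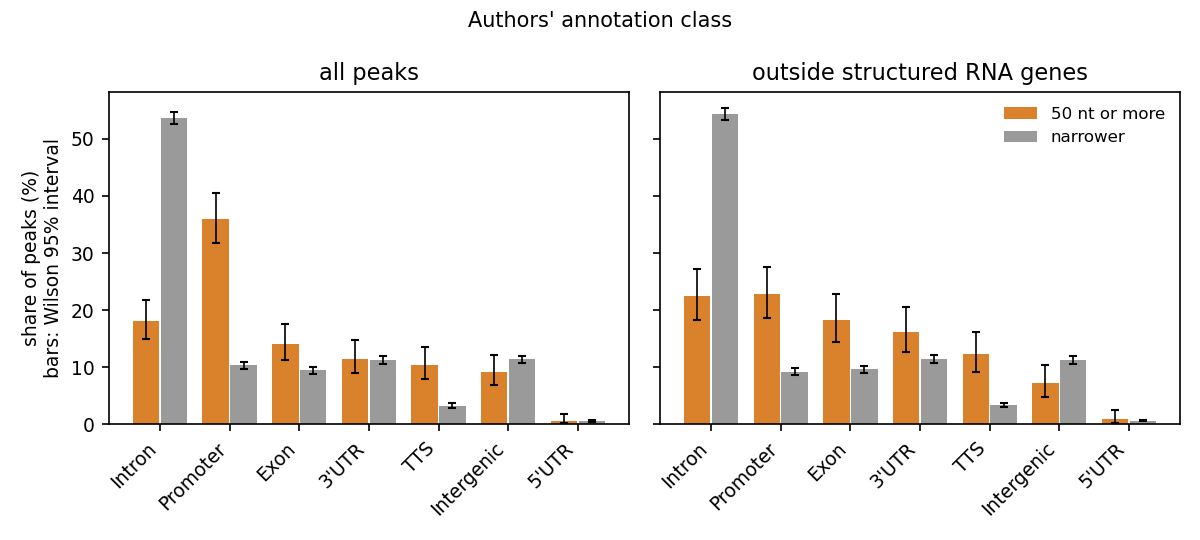
Share of wide (orange) and narrower (grey) peaks in each annotation class of the authors, in percent with Wilson 95% intervals, for all peaks (left) and outside structural RNA genes (right). In both panels the intron share of wide peaks is less than that of narrower peaks by more than the intervals.

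Distance to a gene end went with this. It was measured only for peaks of protein-coding and long noncoding RNA genes that lay wholly inside their gene's RefSeq span. Peaks that crossed a gene end were therefore left out. Within 1000 nt of an end of their RefSeq gene lay 26.6% of 241 wide peaks outside structural RNA (21.4 to 32.5%) and 10.5% of 6613 narrower ones (9.79 to 11.3%). Median distances to the nearer end were 3773 and 11534 nt. Gene length was not matched. Neighbouring peaks were counted over all 469 wide and 8932 narrower peaks, structural RNA included. Wide peaks had another peak within 1000 nt in 13.4% of cases (10.6 to 16.8%), against 7.98% for narrower peaks (7.44 to 8.56%). They touched another peak about as often, in 1.92% and 2.06% of cases.

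Among gene groups, cytosolic ribosomal protein genes had the highest wide share of the protein-coding lists. Over all peaks outside the intergenic class, 426 of 8341 were wide (5.11%). Of the 34 peaks on ribosomal protein genes 12 were wide (35.3%, 21.5 to 52.1%), in 11 genes. RPLP1, a protein of the ribosomal stalk, had 2, of 208 nt at its promoter label and 102 nt at its termination site. RPL41 had a peak of 191 nt, RPS23 one of 181 nt in its 3′ UTR and RPL32 one of 156 nt. Of the 12, 6 were labelled termination site, 4 promoter and 2 3′ UTR; none was intronic, while 11 of the 22 narrower peaks were. Ribosomal protein pseudogenes, matched by symbol, had 5 wide peaks among 23, RPL18AP8 (100 nt), RPL12P8 (84 nt), RPS7P1 (81 nt) and RPL36P16 (56 nt) among them. By coordinates, however, the RPL18AP8 peak lay on a RefSeq pseudogene of a mitochondrial gene. Reads of a ribosomal protein mRNA and of its processed copies cannot always be told apart.

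Replication-dependent histone genes, whose mRNAs end in a stem-loop processed with the help of U7, had 2 wide peaks among 9 (22.2%, 6.32 to 54.7%). They were H2BC7 (130 nt) and H3C7 (52 nt). This interval overlaps that of the ribosomal protein genes. Translation factor genes had 4 among 56 (7.14%, 2.81 to 17.0%, an interval that holds the share over all genes), in EIF5B (119 nt), EIF5 (81 nt), EIF3CL (76 nt) and EIF4H (60 nt), of which 3 were exonic. The helicase list had 4 among 31 (12.9%, 5.13 to 28.9%), an interval whose low end lies close to the 5.11% over all genes. The splicing helicase gene DDX5 had 2 of them, 84 nt in an exon and 54 nt at a promoter label; DDX17 had 56 nt in an intron and DDX6 53 nt in its 3′ UTR.

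For genes of splicing proteins and chaperones, the share of wide peaks could not be set apart from the 5.11% over all genes, which lay inside each list's interval. SART1, a protein of the tri-snRNP, had a peak of 82 nt, the only wide one among 43 peaks of snRNP protein genes (2.33%, 0.412 to 12.1%). PCBP2 (60 nt) was the only one among 38 peaks of hnRNP genes (2.63%, 0.466 to 13.5%). SRSF1 (54 nt) was the only one among 8 peaks of SR protein and TRA2 genes (12.5%, 2.24 to 47.1%). Heat shock and chaperonin genes had 0 among 34 (upper bound 10.2%).

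The same held for 3 further lists. Genes named ZNF, most of which code for zinc finger transcription factors, had 9 wide peaks among 179 (5.03%), among them ZNF655 (88 nt), ZNF362 (68 nt) and ZNF460 (62 nt). Ubiquitin system genes had 6 among 144 (4.17%). USP9X, a deubiquitinase gene, had 2 of these, 70 and 52 nt, and UBE2G1 (65 nt), UBE2C (52 nt) and UBE3D (51 nt) had 1 each. Nuclear long noncoding RNAs had 2 among 23, on XIST (77 nt) and FTX (55 nt), the former the RNA that coats the inactive X chromosome.

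Single genes outside the lists completed the widest members. MTR, methionine synthase, had 117 nt in its 3′ UTR, and the histone H3 pseudogene H3P6 had 123 nt. KDM5C, a histone demethylase gene, had peaks of 88 nt at a promoter label and 60 nt in an exon. SLITRK5 had peaks of 52 and 51 nt next to each other in its 3′ UTR. The long noncoding RNAs ENSG00000283907 (175 nt, exonic) and ENSG00000230803 (104 nt, intergenic) have no described role in the sources used here. The ENSG00000230803 peak ended at chr2:132279432, just before the 28S pseudogene RNA28SP, which starts at 132279434.

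By chromosome, wide peaks were placed on all 25 chromosomes, the mitochondrial genome included. Chromosome Y had 1 wide peak, on a copy of 18S ribosomal RNA, and 22 narrower ones. Whether the reads of these peaks came from chromosome Y was not tested. Chromosome 1 held 14.5% of wide peaks (11.6 to 17.97%) and 11.1% of narrower ones (10.4 to 11.8%), intervals that overlap. Apart from the mitochondrial genome, the intervals separated only for chromosome 10, which held 1.07% of wide peaks (0.456 to 2.47%) and 4.11% of narrower ones (3.72 to 4.54%).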

How the data were processed

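The authors' deposited file is a single table of peak positions, in nt of hg38, with a gene, gene type and annotation class per peak; the authors deposited no other value per peak. Per the submitters' processing notes, Trim Galore 0.6.10 and Bowtie2 2.5.1 were used. How peaks were found, filtered against the input, pooled and annotated is not given in the sources used here. No library's depth is known, and the expression of cell line markers could not be checked from positions. Starts, counted from 0 in the list, are printed from 1. Gene spans and sequences came from RefSeq (GRCh38.p14), whose table here has no exons or strand. A peak was given the first class it overlapped by at least 1 base, in the order mitochondrial genome, ribosomal RNA, tRNA, snRNA, 7SL group, snoRNA, pseudogenes, other genes. Gene lists were matched by symbol; for 11 of 18 a gene type condition was added after results were seen, which keeps pseudogenes out of protein lists. The members and lists were chosen with earlier results of these data known. Named are the genes of the 20 widest peaks, genes with several wide peaks, up to 4 genes per list, the 2 widest per annotation class and gene type, and 3 genes at 50 and at 49 nt; others are marked or stand as counts. Overlaps and intervals were tested on simulated data. Scripts ran in Python 3.11.15 (pandas 2.3.3, numpy 2.4.6, matplotlib 3.10.9).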

Additional observations from a re-analysis of the deposited data

How the results depend on the processing

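No paired analysis was possible because the list has no column per library, and for the same reason no library could be left out. The alternative by the middle base of the peak was added after seeing the data. Of 290 alternative values over 46 results, 231 stayed within the interval of the reported value. For the share of bases this interval (16.8 to 17.1%) counts bases as if they were independent, so it is too narrow. Shares in percent are given first for wide and then for narrower peaks. With 40 nt or more as wide, wide peaks were 10.8% of the list and held 26.0% of its bases. Their shares were then 31.8% and 54.2% for introns, 25.9% and 9.91% for promoter labels, 69.1% and 77.1% for protein-coding genes, and 5.12% and 0.918% for snRNA genes. By coordinates they were 15.7% and 1.71% on structural RNA, 5.42% and 0.405% on tRNA, and 5.02% and 0.572% on snRNA with copies. Near a gene end (within 1000 nt, here with structural RNA included) lay 20.3% and 10.1%, against 25.8% and 10.5% at 50 nt. On ribosomal protein genes lay 1.62% and 0.256%, against 2.82% and 0.278% at 50 nt. Long noncoding RNAs held 13.50% and 13.51%, so that their higher share among wide peaks (17.7% and 13.3%) was no longer seen. With 75 nt or more, wide peaks were 1.78% of the list and held 10.4% of its bases. Their shares were 7.19% and 52.6% for introns, 61.1% and 10.7% for promoter labels, 31.1% and 77.1% for protein-coding genes, and 17.96% and 1.07% for snRNA genes. For 3′ UTRs they were 3.59% and 11.4%, against 11.5% and 11.3% at 50 nt. By coordinates they were 59.9% and 2.19% on structural RNA, 16.2% and 0.671% on tRNA, 19.2% and 0.726% on snRNA with copies, and 40.8% and 10.8% near a gene end. With 1 peak per gene, the widest, wide peaks were 6.998% of the list with 21.7% of its bases, and 0% and 0.0334% touched another peak. Wide peaks held 17.3% of the bases with touching peaks merged and 13.7% without mitochondrial and chromosome 21 short arm peaks. Another peak lay within 100 nt of 5.33% and 3.10% and within 1000 nt of 13.4% and 7.98%. A gene end lay within 500 nt of 17.9% and 6.02% and within 2000 nt of 36.5% and 18.1%, again with structural RNA included. The causes of these shifts were not tested. Leaving out the 12 entries after the sorted part of the list moved no share beyond its interval.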
